A study of Mus musculus with 309 samples.

Results

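The experiment described here is the checkpoint antibody arm of the 2208 mouse mammary tumour model. Its members were chosen by title: 3 tumours of mice given anti-PD1 + anti-CTLA4 (libraries CP-4682, CP-4683 and CP-4684) and 3 untreated 2208 tumours (CP-4535, CP-4536 and CP-4537), which makes 6 of the 309 tumours of the series. The series profiled poly(A) RNA of cryopreserved mammary tumours from genetically diverse mouse models of triple-negative breast cancer under immunotherapy, chemotherapy, erlotinib or trametinib. All 6 tumours share the model, and the labels give no strain, age, dose or time of collection. Nor do they say whether each tumour came from its own mouse, so p-values measure the spread between these samples. Further tumours were used for contrast: 3 tumours of 2208 given carboplatin + paclitaxel (CP-4685 to CP-4687), and untreated and antibody tumours of the models 2153 and p53RB-626, 3 of each arm. Of the 6 untreated p53RB-626 tumours, the 3 with library numbers near those of untreated 2208 tumours (CP-4547 to CP-4549) were compared and the other 3 were left out of the main fit. Tumours of 2208 given erlotinib or trametinib entered an alternative fit that held every tumour of this model. The median survival that the labels give was 21 days for untreated 2208 mice, 22 days with the antibodies and 44.5 days with the chemotherapy.

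PD1 and CTLA4 are receptors that restrain T cells. CTLA4 competes with the costimulatory receptor CD28 when T cells are primed, and PD1 signals when it meets its ligand PD-L1, encoded by Cd274, on tumour or myeloid cells. Antibodies that block both can release T cells, whose interferon gamma then induces antigen presentation genes, chemokines such as CXCL9 and PD-L1 itself; type I interferon induces an overlapping set of antiviral genes.

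The 6 libraries held between 77990000 and 118900000 estimated counts. Epcam, an adhesion protein of epithelial cells, stood at 549, 575 and 591 CPM (estimated counts per 1000000 in the library, after scaling) in untreated tumours and at 525, 554 and 523 CPM in antibody tumours, and did not pass the test (log2 fold change -0.13 ± 0.06 SE, adjusted p = 0.193). Muscle RNA differed between the arms. All 15 genes of a skeletal muscle list were lower in antibody tumours, and their summed level ranged from 1666 to 5820 CPM in untreated and from 62.2 to 354 CPM in antibody tumours. No antibody tumour reached the level of an untreated one. Of 11 tested adipocyte genes 9 were lower and Scd1, a fatty acid desaturase, was higher. The summed level of this list, which abundant genes dominate, overlapped (484 to 674 CPM untreated, 552 to 735 CPM antibodies). Its mean log2 CPM did not overlap (1.25 to 2.77 untreated, -1.12 to -0.38 antibodies). Plin1, which coats fat droplets, was at 0 in tumour CP-4682 and at 0.05 CPM or less in the other antibody tumours. In bulk RNA, fewer cells of a type and less RNA per cell cannot be told apart. The part of host muscle and fat in the results that follow was not tested apart from the fits given beside them. The library numbers of the arms did not overlap, so any effect of number and treatment cannot be told apart.

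**Figure D1:**
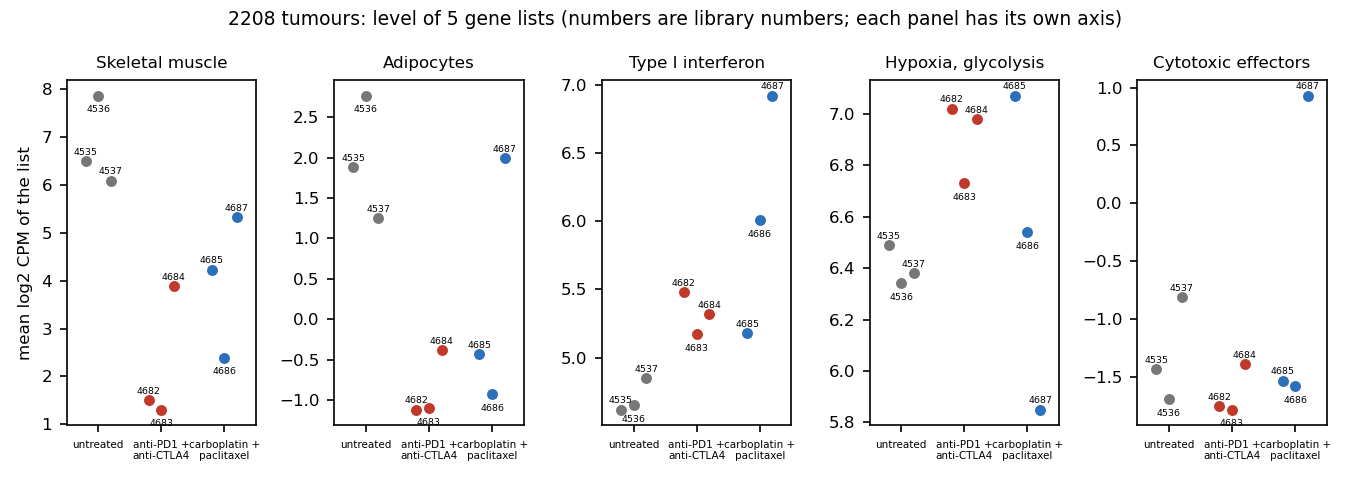
Mean log2 CPM of 5 gene lists (y axis, separate for each panel) in each of the 9 tumours of 2208, by arm (x axis). Untreated tumours lay above all antibody tumours for skeletal muscle and adipocyte genes and below them for interferon and hypoxia genes, while the cytotoxic list overlapped.

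Against untreated tumours, antibody tumours had higher interferon-induced and hypoxia-induced genes, higher Cd274 and 4 higher matrix metalloproteinases, while Il7r was the only gene of the T cell and cytotoxic lists called. Genes of muscle (15 of 15) and most tested genes of fat (9 of 11) were lower, and so were 13 of 24 genes of fibroblasts, 5 of 10 of mast cells and eosinophils, 12 of 30 of cell division and 8 of 19 of cholesterol synthesis. Of 18254 genes tested with edgeR's quasi-likelihood test, 1628 were higher (8.92%) and 1665 lower (9.12%) at a Benjamini-Hochberg adjusted p under 0.05, 18.0% in all. The rises were mostly small: 209 exceeded 2-fold and 32 exceeded 4-fold, against 620 and 350 of the falls. The median of all tested genes was 0.00 on the log2 scale. The arms did not overlap for 3276 of the 3293 called genes, so a lack of overlap adds little to a call. Calls numbered 1042 without antibody tumour CP-4682 and 1781 without CP-4684. With the muscle level of each tumour as a covariate, a fit added after seeing the data, no gene passed (1867 at an unadjusted p under 0.05). The muscle level did not overlap between the arms (mean log2 CPM 6.09 to 7.86 untreated, 1.31 to 3.89 antibodies). That fit can therefore hardly separate muscle from treatment, and its values are not effects freed of muscle. Its medians for the main gene lists are given beside those of the main fit.

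**Figure D2:**
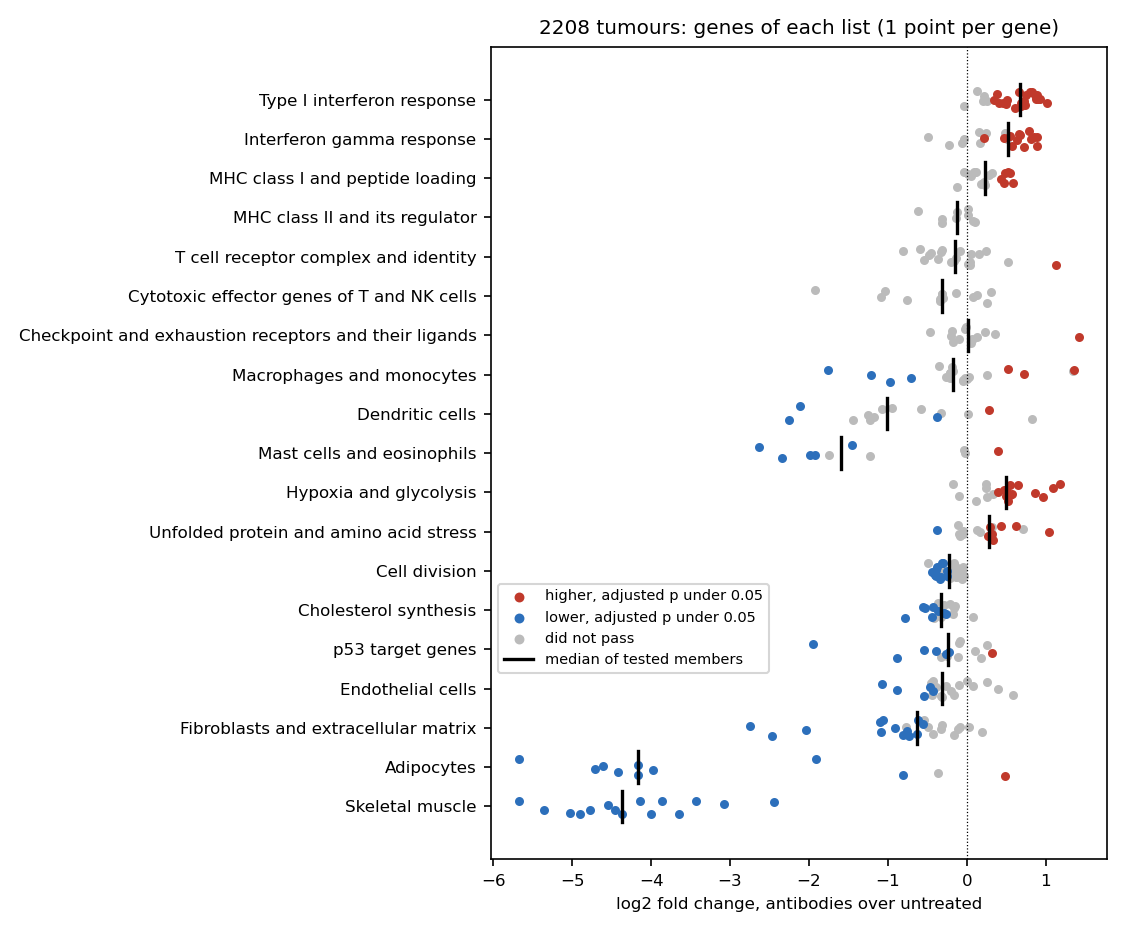
Log2 fold change of antibody over untreated 2208 tumours (x axis) for the tested genes of 19 lists (rows), 1 point per gene, coloured by whether the gene passed; black bars are list medians. Type I interferon genes lie to the right (21 of 26 higher), muscle genes far to the left (15 of 15 lower), while T cell and cytotoxic genes lie on both sides of 0, with 12 of 20 and 10 of 14 below it.

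The genes of interferon signalling are shown first with their promoters, because 21 of 26 members of the type I list rose. The core of the interferon-stimulated response element, GAAANNGAAA on either strand, where interferon regulatory factors and the complex ISGF3 bind, was searched in the 300 bases around RefSeq start sites (GRCm38.p6). It stood in 11 of the 20 type I interferon genes with a promoter entry (55.0%), in 12 of 16 interferon gamma genes and in 3.85% of the 12465 tested genes that had one. A match is a description of the letters and not of binding. The lists hold genes known to respond to interferon, so these shares describe the lists and do not test the rise. The windows below lie upstream of the RefSeq start on the strand of the gene, 5′ to 3′, with the core in capitals, for 6 genes that rose; where the core is on the opposite strand (Ifit1, Rsad2 and Gbp2) it reads as its reverse complement. They are Ifit1 (chr19:34640760-34640838, plus strand), Oas3 (chr5:120777700-120777759, minus strand), Rsad2 (chr12:26456538-26456597, minus strand), Gbp2 (chr3:142620579-142620638, plus strand), Tgtp1 (chr11:48992289-48992348, minus strand) and Irgm2 (chr11:58214888-58214947, plus strand).
Ifit1: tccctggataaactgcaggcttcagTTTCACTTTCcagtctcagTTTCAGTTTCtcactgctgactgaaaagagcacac
Oas3: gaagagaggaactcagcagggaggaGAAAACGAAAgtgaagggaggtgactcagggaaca
Rsad2: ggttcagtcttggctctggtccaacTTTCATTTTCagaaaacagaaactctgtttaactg
Gbp2: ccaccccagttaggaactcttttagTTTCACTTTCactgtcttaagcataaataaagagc
Tgtp1: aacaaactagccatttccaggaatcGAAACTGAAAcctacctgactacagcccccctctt
Irgm2: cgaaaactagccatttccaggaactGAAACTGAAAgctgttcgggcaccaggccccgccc

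Of 26 type I interferon genes 21 were higher and none was lower, with a median log2 fold change of 0.68. The list holds sensors of viral RNA, enzymes that block viral replication and regulators of the response. Oasl2, an oligoadenylate synthetase-like protein (chr5:114896936-114912234), stood at 59.2, 64.3 and 65.7 CPM in untreated tumours and at 128, 107 and 123 CPM in antibody tumours, a 1.86-fold difference (log2 0.89 ± 0.09 SE, adjusted p = 0.00335). Xaf1, an interferon-induced promoter of apoptosis, went from 36.0 to 37.6 CPM in untreated to 59.7 to 72.1 CPM in antibody tumours (log2 0.83). All antibody tumours were above all untreated ones for both. Zbp1, a sensor of Z-form nucleic acids, rose by 0.75 and Mx1, a GTPase against viruses, by 0.88 on the log2 scale. Mx2 rose most, from 7.80, 8.73 and 9.81 CPM to 20.6, 15.8 and 18.1 CPM (log2 1.02 ± 0.13 SE, adjusted p = 0.00447). Irf7, which amplifies type I interferon production, rose by 0.69, and Ifit1, Oas3 and Rsad2 rose by 0.90, 0.93 and 0.87. The 5 members that did not pass were Oas2, Ifi47, Bst2, Trim30a and Sp100, at -0.04 to 0.25. The count was 15 to 21 when any tumour was left out. It was 1 in the fit of 18 tumours of 3 models and 0 in that of all 15 tumours of 2208. That 15-tumour fit added the carboplatin + paclitaxel, erlotinib and trametinib tumours of this model. The list median was 0.57 with the muscle level as a covariate.

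Genes of the interferon gamma response rose in part. Of 22 members 13 were higher and none was lower (median 0.52), and 9 to 13 passed when a tumour was left out; the 15-tumour and 18-tumour fits called none. The median was 0.56 with the muscle covariate. The guanylate-binding protein Gbp2 (chr3:142620602-142638008) stood at 24.1, 24.3 and 26.0 CPM in untreated and at 45.0, 40.6 and 45.4 CPM in antibody tumours (log2 0.79 ± 0.07 SE, adjusted p = 0.00335). Nlrc5, the activator of MHC class I genes, rose by 0.68, and the immunity-related GTPases Igtp and Tgtp1 by 0.73 and 0.54. These genes did not overlap between the arms, like nearly all called genes. The chemokines of the list behaved otherwise. Cxcl9, which attracts T cells, was 8.44, 7.08 and 12.7 CPM untreated and 8.01, 8.23 and 11.3 CPM with antibodies (log2 -0.06 ± 0.22 SE, adjusted p = 0.876), and Cxcl10 had a fold change of 0.25 that did not pass. Ifng itself was below the filter, with 0 to 4 estimated counts per untreated and 0 to 6 per antibody library.

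MHC class I and peptide loading had 6 of 17 members higher and none lower (median 0.23). Tap1, which pumps peptides to MHC class I, stood at 37.4, 36.7 and 43.8 CPM in untreated and 54.9, 64.0 and 54.6 CPM in antibody tumours (log2 0.53 ± 0.09 SE, adjusted p = 0.00896). H2-T23, H2-T22, H2-Q6 and H2-Q7, non-classical class I genes, and the immunoproteasome subunit Psmb8 made up the rest; these H2 genes resemble each other, so reads can be split between them. H2-T22 did not pass without CP-4682 (0.50), and H2-Q6 did not pass without CP-4682, CP-4683, CP-4535 or CP-4536 (0.40 to 0.60). B2m, the shared light chain, and the classical H2-K1 and H2-D1 were at 0.23, 0.18 and 0.32 and did not pass. The count fell to 2 without CP-4682 and to 3 without CP-4683, CP-4535 or CP-4536, and the median was -0.03 with the muscle covariate. None of 9 MHC class II genes was called (median -0.13, and -0.39 with the covariate).

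Cd274, which encodes PD-L1 (chr19:29367455-29388095), stood at 7.27, 7.48 and 7.74 CPM in untreated tumours and at 28.1, 15.9 and 17.6 CPM in antibody tumours. Every antibody tumour was thus above the untreated ones, and CP-4682 was the highest. The fold change was 2.68 (log2 1.42 ± 0.20 SE, adjusted p = 0.00576), and it was 1.07 on the log2 scale with the muscle covariate. It passed without any single tumour, but not in the 15-tumour and 18-tumour fits at nearly the same fold change. Cd274 was the only one of 14 tested checkpoint receptors and ligands to be called. Pdcd1, which encodes PD1, was at 0.71, 0.50 and 1.14 CPM untreated and 0.76, 0.83 and 0.80 CPM with antibodies (adjusted p = 0.985). Ctla4 was at 0.17 to 0.41 CPM and 0.18 to 0.41 CPM in the 2 arms (adjusted p = 0.927). Both targets were thus low and overlapped between the arms.

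Of 20 T cell identity genes 1 was called: Il7r, the interleukin 7 receptor, rose from 1.70, 2.08 and 2.29 CPM to 5.91, 3.26 and 4.36 CPM (log2 1.13 ± 0.24 SE, adjusted p = 0.0164), and it did not pass without CP-4682 (log2 0.88). The list median was -0.15, with 8 members above 0 and 12 below, and it was -0.62 with the muscle covariate, with 1 above and 19 below. Cd8a, of cytotoxic T cells, was 0.30, 0.34 and 0.51 CPM in untreated and 0.60, 0.59 and 0.50 CPM in antibody tumours (log2 0.52 ± 0.26 SE, adjusted p = 0.194). Cd4 (log2 0.24, adjusted p = 0.563), Foxp3 of regulatory T cells (0.25, adjusted p = 0.803) and Gzmb, the granzyme of killer cells (0.08, adjusted p = 0.921), did not pass either. All these values lay under 3 CPM. Of 14 tested cytotoxic genes none was called (median -0.31, and -0.71 with the covariate), with 4 above 0 and 10 below, and Ncr1 and Klrd1 of natural killer cells had fold changes of -1.92 and -1.08 that missed the threshold (adjusted p = 0.0604 and 0.0605). Tnfrsf9, the costimulatory receptor 4-1BB, was the only called gene of 9 in the regulatory and costimulatory list, at 2.90, 4.58 and 4.89 CPM untreated and 14.6, 7.18 and 12.3 CPM with antibodies (log2 1.44 ± 0.29 SE, adjusted p = 0.0145), and it did not pass without CP-4682 (log2 1.21).

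**Figure D3:**
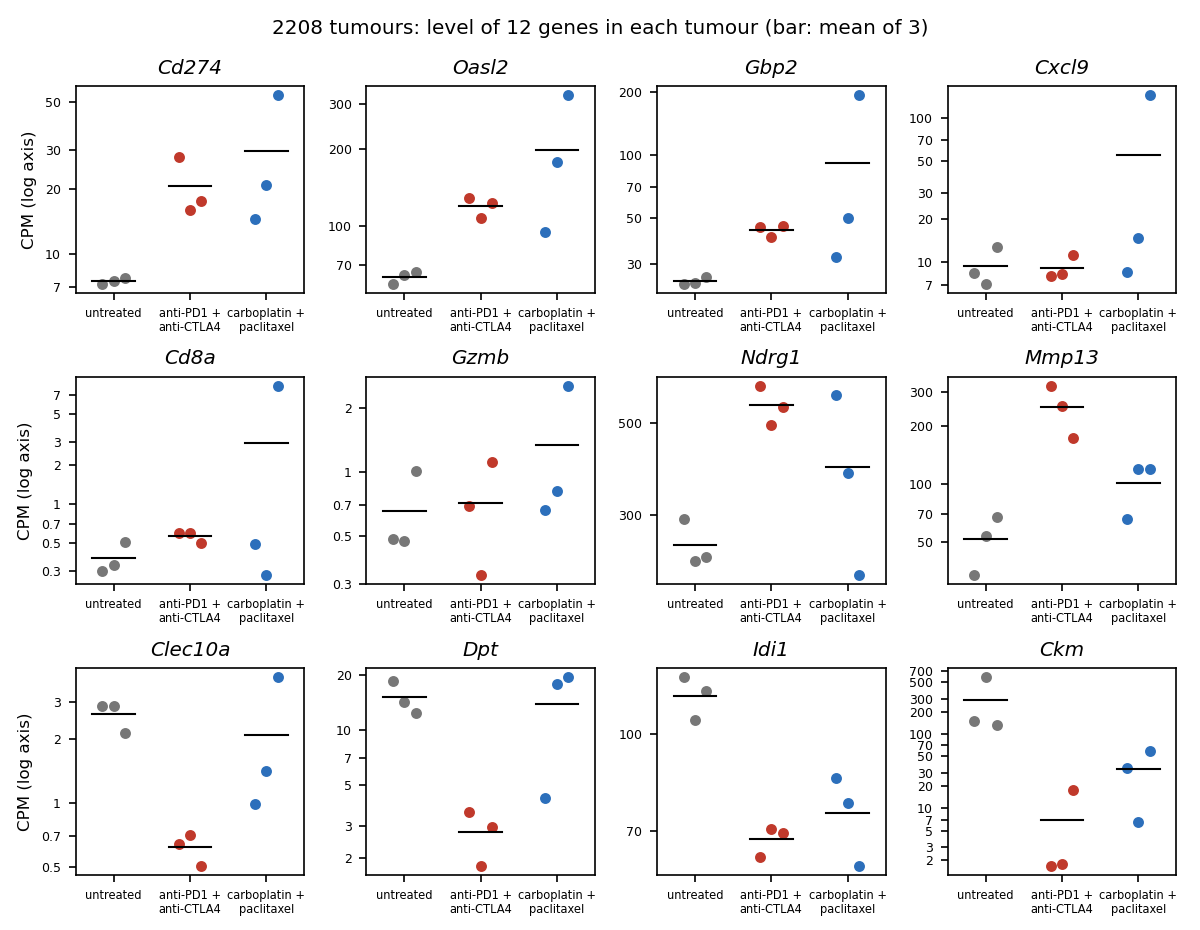
Level (y axis, CPM on a log scale) of 12 genes in each tumour of 3 arms of 2208 (x axis); bars are means of 3 tumours. Cd274, Oasl2, Gbp2, Ndrg1 and Mmp13 are higher in every antibody tumour than in every untreated one, Clec10a, Dpt, Idi1 and Ckm lower, and Cxcl9 and Gzmb overlap; carboplatin + paclitaxel tumours are spread widely.

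Matrix metalloproteinases, enzymes that cut the extracellular matrix, took 4 of the 10 largest rises among called genes whose log2 CPM averaged 1 or more and whose arms did not overlap. Of the 32 rises over 4-fold 27 were of genes under that level, and 4 were within this rule. Mmp13 (chr9:7272514-7283331), a collagenase, stood at 33.8, 53.7 and 67.0 CPM in untreated tumours and at 319, 254 and 172 CPM in antibody tumours (log2 2.24 ± 0.28 SE, adjusted p = 0.00443). Mmp3, a stromelysin, went from 7.32, 5.0 and 10.7 CPM to 58.5, 27.4 and 25.2 CPM (log2 2.24), Mmp10 rose by 1.97, and Mmp12, the elastase of macrophages, by 2.11. That these 4 did not overlap between the arms follows from this rule. With the muscle covariate Mmp13, Mmp3, Mmp10 and Mmp12 were at 1.27, 0.62, 0.28 and 1.71. Mmp12 did not pass without CP-4535 (log2 1.95) or CP-4537 (2.14). They lie in a cluster of 10 Mmp genes at chr9:7272514-7699585, whose other members were looked at after the values were seen. Mmp8 and Mmp7 did not pass (adjusted p = 0.107 and 0.724), nor did Mmp27, and Mmp1a, Mmp1b and Mmp20 had at most 7 counts in a library. The same rule gave Cd274 and Tnfrsf9, described above, and Bmp5, a bone morphogenetic protein (log2 2.29, from 0.93 to 1.29 CPM to 4.12 to 8.70 CPM), Fmo2, a flavin monooxygenase (1.69), Rgs1, a regulator of G protein signalling in lymphocytes (1.39), and Nos2, the inducible nitric oxide synthase of activated macrophages (1.36).

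Myeloid genes moved in both directions. Of 21 tested macrophage and monocyte genes 3 rose and 4 fell (median -0.18, and -0.54 with the muscle covariate). Besides Nos2, Arg1, an arginase, and Spp1, the matrix protein osteopontin that tumour cells also make, rose by 0.52 and 0.73. Ccr2, the receptor that draws monocytes into tissue, fell from 59.6, 53.9 and 79.9 CPM to 24.5, 30.5 and 30.1 CPM (log2 -1.21 ± 0.15 SE, adjusted p = 0.00419). Ly6c2 of inflammatory monocytes and Cd163 and Mrc1, scavenger and mannose receptors of resident macrophages, fell by 0.97, 1.76 and 0.70. Adgre1, Csf1r and Cd68, general macrophage genes, did not pass. Without CP-4683 or CP-4684 the 4 falls became 1. Ccl2 and Ccl7, which encode ligands of CCR2, were among the 7 of 20 chemokine and growth factor genes that fell, with none higher (median -0.25, and -0.28 with the covariate). Ccl8 went from 21.3, 19.6 and 22.3 CPM to 10.8, 11 and 8.95 CPM (log2 -1.07 ± 0.10 SE, adjusted p = 0.00335), and Ccl2 and Ccl7 fell by 0.70 each. That count was 2 without CP-4535, 3 without CP-4682 or CP-4683, and 4 without CP-4684, CP-4536 or CP-4537.

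Among 14 dendritic cell genes 3 fell and Itgax rose (median -1.01, and -1.80 with the muscle covariate). Clec10a and Cd209a, lectins of monocyte-related dendritic cells and some macrophages, fell most. Clec10a (chr11:70156197-70170834) went from 2.86, 2.86 and 2.14 CPM to 0.64, 0.71 and 0.51 CPM (log2 -2.11 ± 0.20 SE, adjusted p = 0.00335), and Cd209a fell by 2.26. The genes of cross-presenting cells, Xcr1 and Clec9a, had fold changes of -1.08 and -1.17 that did not pass, and the list had 5 falls without CP-4683. Itgax did not pass without CP-4682, CP-4535 or CP-4536 (0.24 to 0.28). Mast cell proteases were low and lower still with antibodies: Mcpt4 went from 0.43, 0.57 and 0.40 CPM to 0.12, 0.09 and 0.07 CPM (log2 -2.34 ± 0.33 SE, adjusted p = 0.00533). In all, 5 of 10 mast cell and eosinophil genes fell and Kit, which epithelial cells also express, rose (median -1.60, and -1.11 with the muscle covariate). The falls numbered 3 without CP-4682, CP-4683 or CP-4535. Neutrophil genes did not move as a group, with 1 of 18 higher and 1 lower (median 0.20, and 0.05 with the covariate). S100a8, a calcium-binding protein of neutrophils, was at 4.79, 4.27 and 7.62 CPM and 8.88, 6.44 and 7.89 CPM (adjusted p = 0.196), and Csf3r, the G-CSF receptor, had an adjusted p = 0.348. Ighm, the heavy chain of IgM, fell by 0.81 (10.2, 7.31 and 13.4 CPM to 4.92, 6.63 and 6.49 CPM, adjusted p = 0.0354), and it did not pass in 5 of the 6 fits that left out a tumour, the exception being without CP-4536 (-0.88 to -0.59 in those 5).

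Genes induced by hypoxia rose. Cells short of oxygen stabilise the factor HIF, which binds the core ACGTG and turns on glucose uptake, glycolysis, blood vessel growth and pH control. Of 20 members 13 were higher and none was lower (median 0.50, and 0.49 with the muscle covariate). Ndrg1 (chr15:66929318-66969640), a stress-responsive gene that HIF induces, stood at 293, 232 and 237 CPM in untreated tumours and at 613, 496 and 547 CPM in antibody tumours (log2 1.09 ± 0.11 SE, adjusted p = 0.00335). Adm, the vasodilator adrenomedullin, rose by 1.18, Car9, a carbonic anhydrase, by 0.96, and Vegfa, the vessel growth factor, from 89.0, 97.2 and 87.3 CPM to 163, 117 and 158 CPM (log2 0.65 ± 0.13 SE, adjusted p = 0.0134). The glycolytic Pfkp, the glucose transporter Slc2a1 and the kinase Pdk1 rose by 0.86, 0.58 and 0.51, while Ldha, Aldoa and Eno1 did not pass. The arms did not overlap for any of these that rose, as for nearly all called genes. The count was 7 without CP-4682 and 8 without CP-4684 or CP-4537. The 15-tumour and 18-tumour fits each called 3. As for the interferon lists, a share of promoters with a core describes the list and does not test the rise. The core ACGTG, on either strand, stood in 13 of 18 promoter windows of the list (72.2%), against 27.9% of the tested genes that had one. It is shown in capitals upstream of Slc2a1 (chr4:119108684-119108738, plus strand) and Bnip3 (chr7:138909584-138909639, minus strand). Bnip3, a nuclear gene for a mitochondrial protein, rose by 0.55. In Bnip3 the capitals are a palindrome that holds the core on both strands.
Slc2a1: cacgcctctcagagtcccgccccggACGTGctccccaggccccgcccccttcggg
Bnip3: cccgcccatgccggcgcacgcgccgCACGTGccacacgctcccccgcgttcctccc

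Genes of the unfolded protein and amino acid stress response rose in part, 8 of 18 with 1 lower (median 0.29, and 0.24 with the muscle covariate). Those that rose included targets of ATF4, a factor of amino acid shortage: Asns, asparagine synthetase, stood at 45.2, 41.1 and 42.9 CPM untreated and 60.0, 56.0 and 62.3 CPM with antibodies (log2 0.44 ± 0.07 SE, adjusted p = 0.00694), and Ddit3, Psat1 and the cystine carrier Slc7a11 rose by 0.62, 0.33 and 1.05. The chaperones Hspa5 and Hsp90b1 did not pass. The count of rises was 3 without CP-4682 and 4 without CP-4684, CP-4535 or CP-4537.

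Cell division genes fell in part and by little. Of 30 cell division genes 12 were lower and none higher (median -0.22, and -0.38 with the muscle covariate). Pcna, the sliding clamp of the replication fork, went from 196, 187 and 202 CPM to 147, 158 and 150 CPM (log2 -0.39 ± 0.06 SE, adjusted p = 0.00643), and E2f1, Ccna2 and the helicase subunit Mcm2 fell by 0.40, 0.39 and 0.33. Mki67, the usual marker of cycling cells, was 469, 471 and 401 CPM and 408, 485 and 429 CPM (adjusted p = 0.731). The count was 1 without CP-4682 and 1 without CP-4684, 3 without CP-4535 and 20 without CP-4683. E2f1 and Ccna2 were at -0.40 to -0.34 and not called without CP-4682 or CP-4684, and Mcm2 was at -0.32 to -0.28 without these or CP-4535. Of 16 p53 target genes 6 fell and Sesn2 rose (median -0.24, and -0.15 with the covariate). Eda2r, a member of the TNF receptor family, went from 4.02, 3.51 and 4.31 CPM to 0.80, 0.85 and 1.46 CPM (log2 -1.95 ± 0.24 SE, adjusted p = 0.00435), and Ccng1, cyclin G1, fell by 0.89. Cdkn1a, the p21 inhibitor of the cell cycle, had a fold change of -0.26 (adjusted p = 0.0654), and Trp53 one of -0.02 (adjusted p = 0.837). The falls numbered 3 without CP-4682 or without CP-4684.

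Cholesterol synthesis had 8 of 19 genes lower and none higher (median -0.33, and -0.77 with the muscle covariate). Idi1, isopentenyl diphosphate isomerase (chr13:8885501-8892451), stood at 123, 105 and 117 CPM in untreated and 63.6, 70.3 and 69.5 CPM in antibody tumours (log2 -0.79 ± 0.07 SE, adjusted p = 0.00335). Stard4, a cholesterol carrier, Cyp51 and Hmgcs1, enzymes of the pathway, fell by 0.56, 0.53 and 0.43. The count was 1 without CP-4682, 4 without CP-4684 or CP-4535 and 5 without CP-4537. Stard4, Cyp51 and Hmgcs1 were at -0.53, -0.47 and -0.38 and not called without CP-4682, and Hmgcs1 was at -0.44 and not called without CP-4684. Mitochondrially encoded genes, which share reads with nuclear copies, had 5 of 12 lower, and 1 without CP-4682 (median -0.50, and 0.18 with the covariate). Of 18 luminal and alveolar genes 5 rose and 4 fell (median -0.04, and 0.11 with the covariate). Muc1, a mucin of the luminal surface, went from 177, 183 and 168 CPM to 311, 282 and 275 CPM (log2 0.69 ± 0.07 SE, adjusted p = 0.00335), Elf5, a factor of alveolar cells, rose by 0.49 and Foxa1, a luminal factor, fell by 0.77. The 5 rises were 2 without CP-4683, CP-4684 or CP-4537 and 3 without CP-4682 or CP-4536, and the 4 falls were 0 without CP-4682, CP-4535 or CP-4536 and 2 without CP-4683. Foxa1 did not pass without CP-4682, CP-4683, CP-4535 or CP-4536 (-0.80 to -0.62). Krt15, a basal keratin, fell by 1.39.

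Within the same limits of level and overlap, the 10 largest falls were all of genes known from skeletal muscle: Mylk4, Pvalb, Ckm, Klhl31, Myoz1, Apobec2, Myh4, Pgam2, Atp2a1 and Ckmt2, at -5.98 to -4.74 on the log2 scale. Fat genes fell by similar amounts: Plin1 fell by 5.67, Adipoq, the hormone adiponectin, by 4.72 and Cidec, a fat droplet protein, by 4.61. The medians of the muscle and adipocyte lists were -4.37 and -4.16, and 0.07 and -0.36 with the muscle covariate. That covariate is the level of the muscle list itself, so a muscle median near 0 under it was fixed in advance. Ckm, the muscle creatine kinase, stood at 150, 577 and 134 CPM in untreated and at 1.68, 1.79 and 17.6 CPM in antibody tumours (log2 -5.36 ± 1.05 SE, adjusted p = 0.0133). Calls were lost without CP-4682 for Mylk4 (-5.61), Atp2a1 (-4.33), Myh4 (-4.43) and Ckmt2 (-4.26), without CP-4683 for Myh4 (-4.40) and Ckmt2 (-4.15), and without CP-4536 for Ckmt2 (-3.83). Untreated tumour CP-4536 and antibody tumour CP-4684 were the highest of their arms in these genes. With those tumours left out, an alternative added after seeing the data, 1577 genes were called, among them 15 type I interferon, 8 hypoxia and 18 fibroblast genes and 1 cell division gene.

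Of 24 fibroblast and matrix genes 13 fell and none rose (median -0.63, and -0.68 with the muscle covariate). The largest falls were of genes of adventitial and fascial fibroblasts. Dpt, dermatopontin (chr1:164796644-164824266), went from 18.5, 14.2 and 12.4 CPM to 3.56, 1.82 and 2.97 CPM (log2 -2.47 ± 0.25 SE, adjusted p = 0.00335), and Pi16, Ogn and Mfap5 fell by 2.03, 2.75 and 1.08. Col1a1, the main fibrillar collagen, went from 3198, 3106 and 4462 CPM to 2188, 2356 and 2530 CPM (log2 -0.64 ± 0.14 SE, adjusted p = 0.0203). Pdgfra, Pdgfrb and Postn, other fibroblast genes, did not pass. The count was 5 without CP-4682 and 8 without CP-4683 or CP-4535. Of 20 endothelial genes 5 fell and none rose (median -0.32, and -0.50 with the covariate), led by Tek, the angiopoietin receptor (6.02, 5.48 and 7.24 CPM to 3.08, 3.83 and 3.45 CPM, adjusted p = 0.00795), and Sox18 (log2 -1.07); Pecam1 and Cdh5 did not pass. That count was 2 without CP-4682 and 3 without CP-4684 or CP-4536. These stromal falls stood beside the fall of the muscle and fat lists, whose part in them was not tested beyond the covariate fit.

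Untreated 2208 tumours were placed among the 16 models with at least 3 untreated tumours, as a description. By the mean log2 CPM of the list, 2208 was 2nd from the highest in type I interferon genes (4.71), 1st in skeletal muscle genes (6.82) and 11th in cytotoxic genes (-1.31). It was 2nd in cholesterol synthesis, 10th in hypoxia genes and 15th in unfolded protein and amino acid stress.

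**Figure D4:**
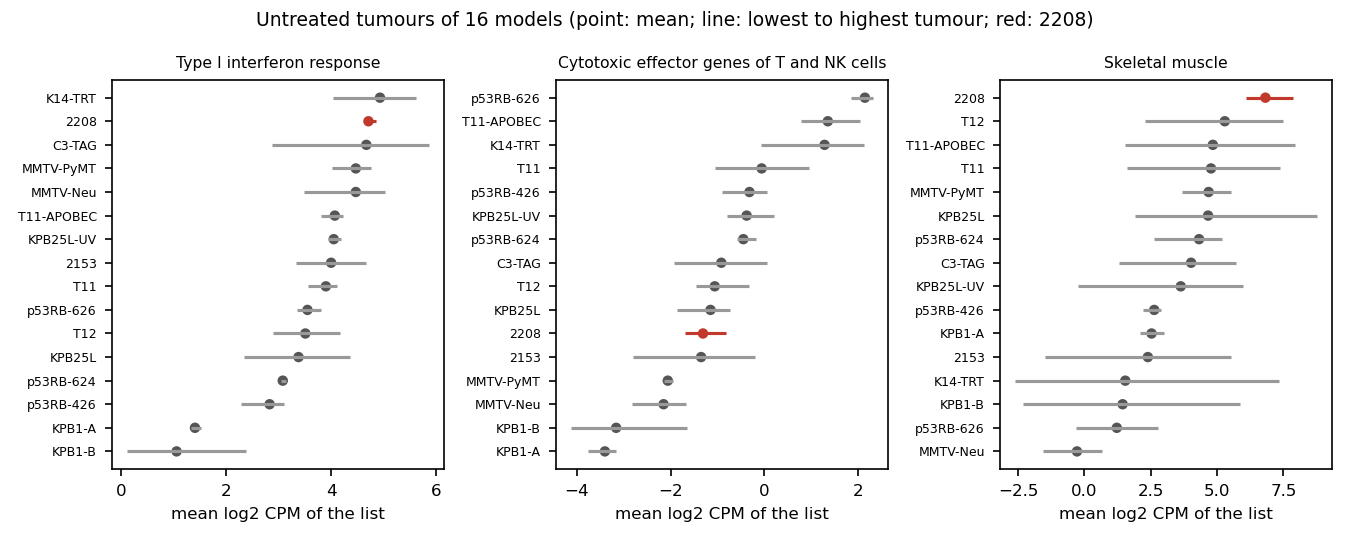
Mean log2 CPM (x axis) of 3 gene lists in untreated tumours of 16 models (rows); points are means, lines run from the lowest to the highest tumour, and 2208 is red. It stands at the top for skeletal muscle, next to the top for type I interferon genes and in the lower part for cytotoxic genes.

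Whether the response of 2208 differed from that of 2153, a model whose arms carry library numbers close to those of 2208, was tested as a difference of the log2 fold changes over 18 tumours. Of 19820 genes, 917 responded more upward in 2208 (4.63%) and 1139 more downward (5.75%), 10.4% in all; the total was 822 without CP-4682, 924 without CP-4684, 1056 without CP-4537 and 1267 without CP-4535. In 2153 itself 15.7% of genes were called, 8.21% higher and 7.49% lower. The interferon medians had opposite signs in the models. All 26 type I members had a positive difference (median 1.18), but only Ifit2, Ddx58 and Ifih1 passed, and none without CP-4682. In 2153, 4 of the 26 fell and none rose (median -0.47). The level of the list (mean log2 CPM) overlapped between the arms of 2153, at 4.01, 3.33 and 4.66 untreated and 2.59, 4.35 and 3.3 with antibodies. The difference for Cd274 was 1.80 ± 0.73 SE and did not pass (adjusted p = 0.122).

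Cell division had the most calls of any list. Of 30, 16 had a lower response in 2208 and none a higher one (median -0.49), and 9 without CP-4682 or CP-4684; in 2153 alone 13 rose and none fell. Mcm3, a helicase subunit, had a difference of -1.18 ± 0.14 SE (adjusted p = 0.000457), with responses of -0.34 in 2208 and 0.83 in 2153. Pcna (-0.86) and E2f1 (-0.96) differed likewise, and Mki67 did not pass (difference 0.01, adjusted p = 0.998). Brsk1, a kinase of neuronal polarity, had the smallest p among the named genes: it stood at 23.5, 25.5 and 24.2 CPM untreated and 54.3, 45.3 and 43.4 CPM with antibodies in 2208, and at 3.87, 5.40 and 4.04 CPM and 1.11, 1.13 and 1.19 CPM in 2153. Muc1 also rose in 2208 and fell in 2153 (difference 1.46 ± 0.22 SE, adjusted p = 0.00211). No skeletal muscle gene passed the test of the difference (0 of 15). In 2153 itself 10 of the 15 fell (median -4.58), but its arms overlapped in the summed level of the list. That sum was 1091, 7.54 and 215 CPM in untreated and 24.0, 24.4 and 6.3 CPM in antibody tumours of 2153.

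**Figure D5:**
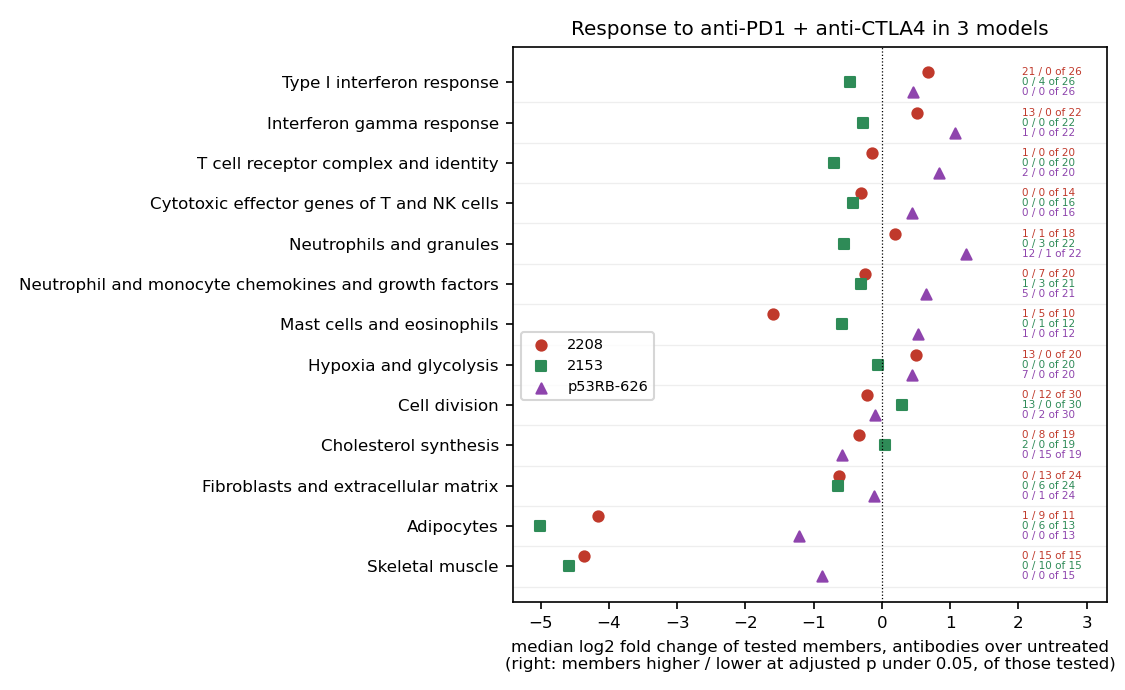
Median log2 fold change of antibody over untreated tumours (x axis) for 13 gene lists (rows) in 2208 (circles), 2153 (squares) and p53RB-626 (triangles), with the members higher / lower of those tested at the right. Type I interferon genes lie above 0 in 2208 and below 0 in 2153, and neutrophil genes are highest in p53RB-626.

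Against p53RB-626, 738 genes responded more upward in 2208 (3.72%) and 862 more downward (4.35%), 8.07% in all; leaving out a tumour of 2208 gave totals of 620 (without CP-4682), 772 (CP-4537), 959 (CP-4535), 969 (CP-4683), 994 (CP-4684) and 1153 (CP-4536). In p53RB-626 itself 15.3% of genes were called, 8.29% higher and 6.97% lower. With all 6 untreated p53RB-626 tumours in the fit, an alternative added after seeing the data, the total was 1159. Neutrophil genes had the most calls of any list. Of 22 tested, 7 had a lower response in 2208 and Padi4 a higher one (median -1.01), 4 were lower without CP-4682, CP-4683 or CP-4537, and 5 with all 6 untreated p53RB-626 tumours; in p53RB-626, 12 rose and 1 fell. S100a8 stood at 1.86, 1.86 and 0.97 CPM untreated and 14.5, 5.56 and 10.9 CPM with antibodies in p53RB-626, where it rose by 2.73, against the 0.45 given for 2208 (difference -2.29 ± 0.45 SE, adjusted p = 0.00769). Lcn2, an iron-binding protein of neutrophils and epithelium, and the cytokine Il1b differed by -2.34 and -1.69.

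No type I interferon gene passed the test of the difference from p53RB-626 (0 of 26, median 0.14), and no cytotoxic gene did (0 of 16, median -0.94). Ctla4 rose by 2.54 in p53RB-626 (adjusted p = 0.0145), but the difference from 2208 did not pass (-2.48 ± 0.93 SE, adjusted p = 0.111). Skeletal muscle genes had a median difference of -3.46, with none of 15 called, and none fell past the threshold in p53RB-626. Chac1, Sesn2 and Herpud1 of the stress list responded more upward in 2208 (1 without CP-4682, and 2 with all 6 untreated p53RB-626 tumours). The metabolic gene Chdh, choline dehydrogenase, had the smallest p of the named genes: 19.5, 22.6 and 17.1 CPM against 32.1, 32.1 and 26.5 CPM in 2208, and 1.70, 1.86 and 1.55 CPM against 0.44, 0.41 and 0.28 CPM in p53RB-626.

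Carboplatin + paclitaxel tumours of 2208 carry the library numbers next to those of the antibody tumours. No gene of 18013 passed between these treatments in edgeR's quasi-likelihood test (0% called; 1942 at an unadjusted p under 0.05), DESeq2 called 100, and edgeR called 4 without chemotherapy tumour CP-4685. Nor did any of 17932 genes pass between chemotherapy and untreated tumours (0% called; 1966 at an unadjusted p under 0.05; lowest adjusted p = 0.0634). The chemotherapy tumours were unlike each other. Tumour CP-4687 had Cd8a at 8.11 CPM and Cxcl9 at 143 CPM, against 0.49 and 0.28 CPM and 8.49 and 14.8 CPM in the other 2. Its type I interferon level was 6.92 (mean log2 CPM), against 5.18 and 6.01 in those tumours and 5.17 to 5.48 with antibodies.

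Some genes of smallest p are given as values that did not pass (adjusted p = 0.457 for each). Per1, a clock gene, stood at 86.6, 93.0 and 87.1 CPM with antibodies and 42.2, 43.9 and 32.3 CPM with chemotherapy. Mmp10 stood at 29.5, 21.0 and 14.7 CPM against 6.75, 6.69 and 6.01 CPM. Hsph1, a heat shock protein, was at 121, 87.3 and 107 CPM against 205, 237 and 183 CPM, and Mgp, matrix Gla protein, at 15.8, 17.7 and 23.4 CPM against 63.3, 40.9 and 80.3 CPM. The arms did not overlap for any of these 4 genes, but they were picked by small p in this comparison, so that adds no support. Cdkn1a was at 21.7, 18.6 and 21.5 CPM with antibodies and 27.3, 58.4 and 112 CPM with chemotherapy (adjusted p = 0.457). Comparisons with untreated tumours share those tumours between both treatments, so the fold changes stand side by side only: Cd274 was at 14.4, 20.8 and 53.8 CPM in the chemotherapy tumours, against the 15.9 to 28.1 CPM given for antibodies. The list medians over untreated were 0.50 with antibodies and 0.14 with chemotherapy for hypoxia, 0.68 and 1.59 for type I interferon, and 0.52 and 1.85 for interferon gamma. They were -0.31 and 0.99 for cytotoxic genes, -0.22 and -0.23 for cell division, -0.63 and -0.46 for fibroblasts, and -4.37 and -2.66 for skeletal muscle. The cytotoxic level (mean log2 CPM) was 0.93 in CP-4687 but -1.53 in CP-4685 and -1.58 in CP-4686, against -1.69 to -0.81 in untreated tumours. In chemotherapy tumours 15 of 15 muscle genes lay below 0 and all 26 type I interferon genes above 0, and none of them was called.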

How the data were processed

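The titles gave each tumour its model and arm. The submitters' processing notes name STAR, SAMtools, Picard and Salmon with mm10, without roles or versions, and nothing states the strandedness. The deposited table holds Salmon's estimated counts for 55291 gene symbols, of which 8.34% of the values in the 6 libraries were not whole; they were rounded. The authors' second table holds a signal equal to the estimated count over the 75th percentile of its library's values above 0, times 1000. Low genes were removed with filterByExpr, library sizes were adjusted by TMM, and edgeR 4.0.16 tested each gene by quasi-likelihood (limma 3.58.1, DESeq2 1.42.0 and R 4.3.3 were also used), with Benjamini-Hochberg adjustment over all tested genes. A gene was called at an adjusted p under 0.05. The script was tested on simulated data. The main comparison was fitted on 6 tumours and the response differences on 18. Printed CPM were scaled over 82 libraries together; fold changes come from the fits. Log2 CPM carry a prior count of 2. Positions are from GENCODE M21 (mm10).

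Genes were named by this rule: the 10 largest rises and falls (5 for response differences) that were called, reached 1 in mean log2 CPM and did not overlap between arms, leaving out predicted genes, pseudogenes and clones; the 5 of smallest p where too few were called; the 4 of smallest p in each list; and 16 genes listed by name. Further members are named from the 35 lists. A few genes that this rule or the lists would name are not reported here. Members and lists were chosen with earlier results of these data known. At these depths counting error matters only for transcripts near 0. The alternatives were other scalings, filters, tools and tumours in the fit, each 2208 tumour left out in turn, and a muscle covariate and the removal of the tumour highest in muscle from each arm, both added after seeing the data, as was a fit with all 6 untreated p53RB-626 tumours.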

Additional observations from a re-analysis of the deposited data

Results flagged for a closer look

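For 20 genes named here the response to the antibodies differed between 2208 and another model by the interaction term of edgeR's quasi-likelihood test. All values are differences of log2 fold changes, 2208 minus the other model, ± SE.

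Against 2153 the response was more upward for Mmp13, the collagenase (3.25 ± 0.77), Mamdc2 (3.23 ± 0.72), the kinase Brsk1 (2.89 ± 0.18), Igfbp2, a binder of insulin-like growth factors (2.75 ± 0.44), and Fmo2 (2.65 ± 0.49). Igfbp2 stood at 65.3, 41.0 and 65.3 CPM untreated and 111, 118 and 98.4 CPM with antibodies in 2208, and at 10.4, 3.35 and 6.52 CPM and 1.74, 1.84 and 2.07 CPM in 2153. It rose in the former and fell in the latter.

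More downward against 2153 were Ddit4l, an inhibitor of mTOR signalling (-4.42 ± 0.63), Tafa1 (-4.34 ± 1.14), Prkaa2, a catalytic subunit of AMP kinase (-4.23 ± 1.18), the growth factor Igf2 (-4.22 ± 0.61) and Pagr1a (-3.85 ± 1.04). Igf2 was at 2.71, 7.55 and 2.24 CPM in untreated 2208 tumours and at 0.23, 0.15 and 0.60 CPM with antibodies. Ddit4l, Prkaa2 and Igf2 were highest in untreated tumour CP-4536, which was also the highest in the skeletal muscle list. The part of muscle in these values was not tested. Mmp13 was not called without CP-4682 (2.99), Tafa1 without CP-4682 (-4.03) or CP-4537 (-3.82), Pagr1a without CP-4682, CP-4684 or CP-4536 (-3.56 to -3.47), and Prkaa2 without CP-4682, CP-4683, CP-4535 or CP-4536 (-4.39 to -3.50).

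Against p53RB-626 the response was more upward for Acox2, a peroxisomal oxidase (4.32 ± 0.73), Mogat1 (3.3 ± 0.60), Padi4 (3.03 ± 0.48), Sv2c (2.96 ± 0.39) and Chdh (2.78 ± 0.22). Acox2 was at 0 in all 3 antibody tumours of p53RB-626 and at 0.0345 CPM or less in its untreated tumours, so its fitted value is no measure of size.

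More downward against p53RB-626 were Slc38a4, an amino acid carrier (-4.33 ± 0.74), Eno3, the muscle enolase (-4.20 ± 0.71), Jph1, a junction protein of muscle (-4.06 ± 0.68), Tdrd9 (-3.89 ± 1.02) and S100a8 (-2.29 ± 0.45). Eno3 stood at 68.7, 171 and 47.4 CPM in untreated and 5.57, 5.09 and 12.3 CPM in antibody tumours of 2208. Tdrd9 was under 0.2 CPM in every 2208 tumour compared and was not called without any 1 of the 6 tumours of 2208 (-4.16 to -3.54).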

How the results depend on the processing

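No paired analysis was possible because the labels give no animal that would link tumours of the arms. Of 115 called genes named in the comparison of antibody and untreated tumours, 115 kept their direction under other scalings, filters, tools and tumours in the fit, and 29 were called in every one of these fits that tested them, the 2-fold limit aside. The total of 3293 calls was 2070 at a mean of at least 10 CPM, 829 with a 2-fold limit, 1070 with all 15 tumours of 2208 in the fit and 1581 with 18 tumours of 3 models. It ranged from 1042 to 2709 when a tumour was left out. With muscle, whose level did not overlap between the arms, as a covariate it was 0. It was 1577 without the tumour highest in muscle of each arm, and the cause was not tested.

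The 15-tumour fit called 0 type I interferon, 0 interferon gamma, 3 hypoxia, 7 fibroblast and 3 cell division genes. The 18-tumour fit called 1, 0, 3, 3 and 6 of these, and 6 muscle genes. With a 2-fold limit the 5 lists had 1, 0, 2, 6 and 0. At 10 CPM there were 8 fibroblast genes, and limma on the authors' table called 4 cell division genes. The muscle covariate left 0 in each of these lists and in the muscle list, from which it was taken. Without the tumours highest in muscle, 8 interferon gamma, 8 hypoxia and 1 cell division genes were called. Leaving out a tumour gave 15 to 21 type I interferon, 9 to 13 interferon gamma, 7 to 16 hypoxia, 5 to 16 fibroblast, 1 to 20 cell division and 10 to 15 muscle genes.

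The difference from the response of 2153 had 3231 calls with DESeq2 and 822 to 1806 with a tumour left out. The difference from p53RB-626 had 2540 with DESeq2, 1039 without a filter, 1159 with all 6 untreated tumours of that model (when Sv2c, at 2.36, was no longer called) and 620 to 1153 with a tumour left out. Antibodies against chemotherapy had 1 call without a filter, 100 with DESeq2 and 0 to 4 with a tumour left out. Among the named genes, only under the muscle covariate did called ones turn their direction, to log2 fold changes of 1.74 for Mylk4, 0.07 for Ckm, 0.15 for Klhl31, 0.80 for Myh4, 0.14 for Pgam2, 0.72 for Atp2a1, 1.45 for Ckmt2, 0.06 for Foxa1, 0.06 for mt-Nd2 and 0.14 for mt-Nd4. Ckm, Myh4 and Atp2a1 belong to the list that makes up this covariate, so their values under it say nothing of the treatment. Mylk4, Klhl31, Pgam2 and Ckmt2 are outside that list but are also known from skeletal muscle, so the same caution holds for them. Genes near 0, such as Ifng, are limited by depth.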

Other observations

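Some keratinocyte and progenitor genes moved in opposite directions in antibody tumours. Of 16 tested basal and squamous genes 3 were higher and 2 lower (median -0.06, and 0.21 with the muscle covariate). Ly6d rose by 1.98, Trp63, the p63 factor of basal cells, by 0.51 and Itga6, an integrin, by 0.33 on the log2 scale, while Krt15 and Sfn fell by 1.39 and 0.54 (adjusted p = 0.00598 and 0.00805, edgeR's quasi-likelihood test). Ly6d was not called without CP-4682 (1.67) or CP-4535 (1.84), and Itga6 was not called without CP-4682 (0.32); Trp63 was not followed in those fits. Of 14 Wnt and stem genes 3 were higher and 2 lower (median 0.13, and 0.09 with the covariate). Axin2, a target of Wnt signalling, stood at 10.1, 12.5 and 10.9 CPM untreated and 14.9, 17.6 and 15.5 CPM with antibodies (log2 0.49 ± 0.11 SE, adjusted p = 0.0195). It was called without CP-4536 but in none of the other 5 fits that left out a tumour (0.42 to 0.54). The stem cell receptor Lgr5 did not pass (adjusted p = 0.954).

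Serpina3n, a protease inhibitor that lies outside the rule for named genes and was chosen after its values were seen, stood at 13.4, 13.5 and 9.74 CPM in untreated and 1.89, 1.36 and 2.37 CPM in antibody tumours (log2 -2.73 ± 0.22 SE, adjusted p = 0.0026). Every antibody tumour was below every untreated one, and nearly all called genes likewise did not overlap between the arms. Genes of transforming growth factor beta signalling had no called member among 13 tested (median 0.01).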
